A study of Homo sapiens with 12 samples.

Results

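Caspases are proteases that cleave cellular proteins after aspartate, and the apoptosome is the wheel-shaped complex through which mitochondria switch them on. The genes described here are 8, chosen by name from the 38516 genes of the deposited table: the caspases CASP1, CASP2, CASP4, CASP6, CASP8 and CASP9, the apoptosome scaffold APAF1, and CYCS, which encodes cytochrome c. RNA sequencing covered 12 libraries of the established human cell lines KYSE150 and KYSE510, both from squamous carcinoma of the esophagus and grown in RPMI-1640 with serum. For each line, 3 control libraries stood beside 3 libraries of cells silenced for HCP5, a long non-coding RNA gene. The labels name no genotype, reagent sequence, dose or time for either arm, and do not say whether replicates came from separate cultures, so p-values measure only the spread between these libraries. The title of the series links HCP5 to apoptosis, and the comparisons asked whether transcripts of this machinery differed with silencing and between the lines.

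Apoptosis can start from 2 sides. On the mitochondrial side, cytochrome c leaves the mitochondria and binds APAF1, which assembles into the apoptosome and activates the initiator CASP9, and CASP9 in turn cleaves executioner caspases. On the receptor side, death receptors recruit the adaptor FADD and the initiator CASP8, which CFLAR restrains. CASP2 is activated by PIDD1 and CRADD in the PIDDosome, CASP6 is an executioner that cleaves nuclear lamins, and CASP1 and CASP4 are inflammatory caspases that cleave the pore protein gasdermin D during pyroptosis. Caspases are made as inactive precursors, so transcript levels do not measure their activity.

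Values are RPKM, reads scaled to the kilobases of exon and to the depth of the library, as deposited. Whole reads could be recovered from them, and the libraries held 20035025 to 28202422 reads, with every silenced KYSE150 library deeper than every control of that line. HCP5 itself was at 0.779, 0.745 and 0.786 RPKM in KYSE150 controls and 0.315, 0.418 and 0.579 in silenced cells, with no overlap. In KYSE510 it was at 0.914, 1.85 and 1.40 in controls and 0.505, 0.951 and 0.948 in silenced cells, where the ranges overlapped. In the limma fit its adjusted p was 0.267 in KYSE150 and 0.646 in KYSE510, and 0.0556 and 0.134 with the replicate number as a block, so the targeted transcript itself did not pass the threshold of 0.05 in either line alone. Over both lines it was at 0.185, and at 0.0295 with the block. Of 10 squamous epithelial markers, 10 reached a group mean of 1 RPKM in KYSE150 and 9 in KYSE510, while 0 of 6 fibroblast markers did in any group and 1 of 7 leukocyte markers did (CD68, at 29.7 to 47.1 RPKM). The leukocyte genes PTPRC and LYZ were at 0 in all 3 KYSE150 control libraries.

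The 250 bases before the annotated start of each gene were read from RefSeq (GRCh38.p14), which matched 7 of the 8 genes by symbol, all except CASP1. The deposited positions start these genes further upstream, so the CASP4 and CASP9 windows fall wholly inside the deposited genes. Those of CASP2, CASP6 and APAF1 fall partly inside. The windows of CASP8 and CYCS are shown because CASP8 differed most clearly between the lines relative to its spread, while CYCS was the most abundant member and overlapped between the lines. They are written 5′ to 3′ on the strand of the gene, CASP8 at chr2:201233213-201233442 on the plus strand and CYCS at chr7:25125362-25125510 on the minus strand, without the 20 and 101 bases that the deposited table counts as exon. Capitals mark each CpG, the dinucleotide at which promoters can be methylated.
CASP8: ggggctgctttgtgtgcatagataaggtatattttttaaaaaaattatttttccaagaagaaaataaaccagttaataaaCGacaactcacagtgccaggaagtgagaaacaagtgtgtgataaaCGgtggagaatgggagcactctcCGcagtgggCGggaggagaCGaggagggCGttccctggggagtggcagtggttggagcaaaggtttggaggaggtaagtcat
CYCS: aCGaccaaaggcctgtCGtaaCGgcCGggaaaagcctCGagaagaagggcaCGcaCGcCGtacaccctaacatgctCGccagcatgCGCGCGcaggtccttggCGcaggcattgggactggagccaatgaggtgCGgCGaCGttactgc
The full window of CASP8 held 6 CpG and that of CYCS 31, against a median of 11 over 27305 promoters. APAF1 held 38, CASP2 and CASP9 29 each, CASP6 26 and CASP4 2. The E-box CACGTG, the palindrome that MYC and related factors bind, was searched on both strands and was in 0 of the 7 windows, and 6.49% of all promoters held it. TTCNNNGAA, the gamma-interferon-activated site, occurred once in the CASP8 window and in none of the other 6, with a share of 6.78% over all promoters. GGGCGG, the SP1 box, occurred 8 times in the CASP9 window, 4 times in CASP2 and 3 times in CASP6. It occurred 1 time each in CASP4, CASP8 and APAF1 and not in CYCS. Of all promoters, 42.3% held it at least 1 time. Matches are descriptions of letters and may overlap each other.

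Transcript levels of the 8 genes ran from 0.403 RPKM (CASP1) to 162 RPKM (CYCS). In RNA from whole cultures, fewer cells that express a gene and less RNA per cell cannot be told apart. CYCS, the electron carrier of the respiratory chain that becomes the apoptosome trigger in the cytosol, was far above the rest, at 162, 149 and 121 RPKM in KYSE150 controls and 132, 124 and 119 after silencing. In KYSE510 it was at 144, 125 and 124 RPKM in controls and 136, 125 and 124 after silencing. Its group mean was 20.2 to 28.5 times that of the next member in each group. CYCS lies on chromosome 7 (25120091 to 25125361, minus strand). The table lists 30 CYCS pseudogenes, which together took 0.405% to 1.16% of the reads assigned to CYCS and its pseudogenes, against 11807 to 15532 reads on CYCS itself. How reads matching several copies were assigned is not given in the sources used here.

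APAF1, the scaffold that CYCS engages, was at 1.77, 2.0 and 2.29 RPKM in KYSE150 controls and 2.15, 2.91 and 2.81 after silencing. In KYSE510 it was at 1.80, 2.57 and 2.0 in controls and 2.40, 2.64 and 2.02 after silencing. CASP9, the protease recruited by APAF1, was the lowest member by mean in every group, at 0.474, 0.545 and 0.594 RPKM in KYSE150 controls and 0.469, 0.713 and 0.732 after silencing. Its values in KYSE510 were 0.647, 1.16 and 0.945 in controls and 0.918, 1.11 and 0.908 after silencing. It rested on 50 to 154 reads a library. Within each library, CYCS was 42.5 to 91.4 times APAF1 in KYSE150 and 47.5 to 80 times in KYSE510, ranges that overlapped. APAF1 was 3.66 to 4.57 times CASP9 in KYSE150 and 2.12 to 2.78 times in KYSE510, ranges that did not. The 2 genes lie on chromosome 12 (98645141 to 98735433, plus strand) and chromosome 1 (15490832 to 15526534, minus strand). APAF1 shares 9.48% of its exon bases with ANKS1B on the opposite strand (0.305 RPKM on average) and CASP9 shares 2.01% with CELA2B (0.0353 RPKM). The use of strand in counting is not given in the sources used here.

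CASP8, the initiator on the receptor side, was at 1.76, 1.93 and 1.72 RPKM in KYSE150 controls and 1.68, 1.77 and 2.06 after silencing. In KYSE510 it was at 5.85, 5.94 and 6.20 in controls and 5.96, 5.86 and 5.87 after silencing. The 6 values of each line lay in a narrow band, and the bands were far apart. CASP2, the PIDDosome caspase, was at 2.38, 2.19 and 3.03 RPKM in KYSE150 controls and 2.61, 2.99 and 3.11 after silencing, and at 1.68, 1.95 and 2.25 and then 1.87, 1.73 and 2.10 in KYSE510. CASP6, the executioner that cleaves lamins, was at 5.21, 5.74 and 4.22 RPKM in KYSE150 controls and 3.17, 4.47 and 4.35 after silencing. Its KYSE510 values were 5.22, 5.89 and 5.69 in controls and 5.49, 6.46 and 5.27 after silencing. CASP8 lies on chromosome 2 (201233443 to 201287711, plus strand), CASP2 on chromosome 7 (143288215 to 143307696, plus strand) and CASP6 on chromosome 4 (109688622 to 109703583, minus strand, with 5.40% of its exon bases shared with CCDC109B on the other strand).

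CASP1, which matures interleukin 1 beta and interleukin 18, was at 0.864, 0.659 and 1.30 RPKM in KYSE150 controls and 0.442, 0.403 and 1.77 after silencing. In KYSE510 it was at 6.26, 6.01 and 6.24 in controls and 6.71, 6.70 and 5.67 after silencing. CASP4, a sensor of bacterial lipopolysaccharide in the cytosol, was at 4.35, 3.91 and 5.02 RPKM in KYSE150 controls and 4.95, 4.63 and 6.67 after silencing, and at 4.89, 4.60 and 4.49 and then 5.05, 4.39 and 4.80 in KYSE510. The ratio of the 2 inflammatory caspases did not overlap between the lines. CASP4 was 3.76 to 11.5 times CASP1 in KYSE150 libraries and 0.656 to 0.846 times in KYSE510 libraries. CASP1 lies on chromosome 11 (105025443 to 105035250, minus strand) and CASP4 on the same strand (104942866 to 104969436), with CASP5 between them.

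**Figure D1:**
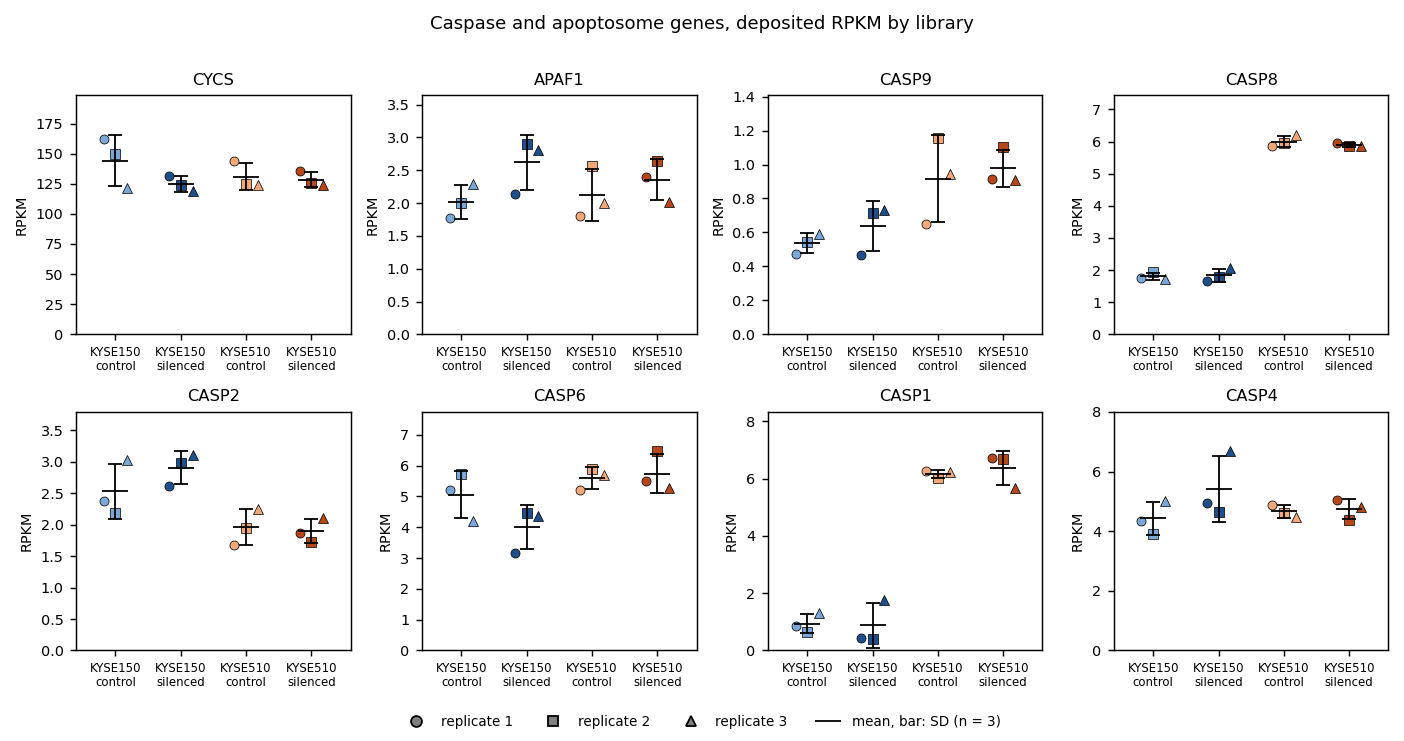
Deposited RPKM (y axis, from 0, scaled to each gene) of the 8 genes in the 4 groups (x axis), with 1 point per library, its shape giving the replicate number, and the mean with its SD (n = 3). CASP1 and CASP8 sit higher in all 6 KYSE510 libraries than in any KYSE150 library, and control and silenced points overlap in every panel.

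The order of the levels differed between the lines below CYCS. In KYSE150 controls it ran CASP6 (5.06 ± 0.774 RPKM, SD, n = 3), CASP4 (4.43 ± 0.558), CASP2 (2.53 ± 0.440), APAF1 (2.02 ± 0.259), CASP8 (1.81 ± 0.110), CASP1 (0.940 ± 0.327) and CASP9 (0.538 ± 0.0604). The neighbours CASP6 and CASP4, CASP2 and APAF1, and APAF1 and CASP8 overlapped between libraries. In KYSE510 controls CASP1 (6.17 ± 0.138) and CASP8 (6.0 ± 0.178) stood above CASP6 (5.60 ± 0.342), followed by CASP4 (4.66 ± 0.208), APAF1 (2.12 ± 0.402), CASP2 (1.96 ± 0.284) and CASP9 (0.916 ± 0.256). CASP1, CASP8 and CASP6 overlapped as neighbours there, as did APAF1 and CASP2. In silenced KYSE510 the order of means was that of its controls. In silenced KYSE150, CASP4 (5.42 ± 1.10) stood above CASP6 (4.0 ± 0.718) without overlap.

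Between replicates, CASP8 was among the steadier members, with a coefficient of variation of 6.11%, 10.8%, 2.97% and 0.920% in KYSE150 control, KYSE150 silenced, KYSE510 control and KYSE510 silenced cells. CASP1 varied most in KYSE150, at 34.7% and 89.4%, and little in KYSE510 controls, at 2.23%. Both high CASP1 values in KYSE150 belonged to replicate 3, with 109 reads in the control and 177 in the silenced library against 42 to 64 in the other 4. Replicate 3 also had the highest summed level of the 10 squamous markers in both KYSE150 groups, 1740 RPKM against 1026 and 1356 in controls and 2962 against 1314 and 1896 in silenced cells. In silenced KYSE510, replicate 3 had the highest marker sum, 2983 RPKM against 2066 and 1743, but the lowest CASP1 value, 5.67 RPKM. In KYSE510 controls, replicate 2 was lowest in both, with 1368 RPKM for the markers and 6.01 for CASP1. The part of these markers in the CASP1 values was not tested.

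None of the 8 genes passed the threshold after HCP5 silencing. A change is given as log2 of silenced over control on the RPKM + 0.5 scale, from a limma fit over the 17823 genes with at least 0.5 RPKM in 3 or more libraries, and a gene counts as changed at a Benjamini-Hochberg adjusted p under 0.05. All 8 members entered the fit. In KYSE150, 0 of 8 passed, where 0.499% of all genes tested did, and 0 of 8 passed with the replicate number as a block, where 6.7% of all genes did. At an unadjusted p under 0.05 stood 1 member, CASP6, against 18.1% of all genes. Control and silenced libraries overlapped for all 8 members, while 19.2% of all genes had no overlap.

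Within KYSE150, the estimates ran in both directions. APAF1 had a difference of 0.30 (SE 0.14, limma adjusted p = 0.288) and was higher in 3 of 3 same-numbered pairs. CASP4 had a difference of 0.25 (SE 0.13, limma adjusted p = 0.314) and CASP2 of 0.17 (SE 0.13, limma adjusted p = 0.477), also higher in 3 of 3 pairs. CYCS had a difference of -0.20 (SE 0.11, limma adjusted p = 0.341) and was lower in 3 of 3 pairs. CASP6 had the estimate farthest from 0, at -0.31 (SE 0.14, 95% interval -0.61 to -0.01, limma adjusted p = 0.271), and was lower in 2 of 3 pairs. With the replicate block the adjusted p was 0.0650 for CASP4, 0.0817 for APAF1 and 0.105 for CYCS.

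The remaining KYSE150 differences were 0.13 for CASP9, 0.016 for CASP8 and -0.18 for CASP1. Their precision was unlike: the 95% interval of CASP8 ran from -0.16 to 0.19 and that of CASP1 from -0.83 to 0.46. Without replicate 3 of both KYSE150 groups, a setting chosen after these values were seen, the CASP1 difference was -0.45 (limma adjusted p = 0.118). It was -0.62 without silenced replicate 3 alone and -0.012 without control replicate 3 alone, and it turned to 0.017 without silenced replicate 1 and to 0.048 without silenced replicate 2. Dividing each library by its median gene moved all KYSE150 differences by -0.13, which turned CASP8 to -0.11 and CASP9 to -0.0028.

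In KYSE510, none of 8 members passed, where 0.0393% of all genes did, nor with the block, where 0.112% did. At an unadjusted p under 0.05 stood 0 of 8, against 6.35% of all genes, and all 8 overlapped between control and silenced libraries, where 12.1% of all genes did not. APAF1 had the estimate farthest from 0, at 0.13 (SE 0.14, 95% interval -0.19 to 0.44, limma adjusted p = 0.952), and was again higher in 3 of 3 pairs. CASP9 followed at 0.074, and the other 6 lay between -0.032 and 0.036. The median over the 8 members was 0.027 in KYSE510 and 0.072 in KYSE150, against -0.023 and 0.082 over all genes tested.

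Over both lines, 0 of 8 members passed, where 0.539% of all genes did and, with the block, 2.74%, and 0 of 8 stood at an unadjusted p under 0.05, where 11.5% of all genes did. Voom on the recovered reads, limma's weighting for counts, also called 0 of 8 in each silencing comparison. APAF1 had a mean difference of 0.22 (SE 0.10, limma adjusted p = 0.457). Silencing effects were compared directly between the lines, and 0 of 8 members passed, as did 0 of 17823 genes with and without the block, while 12.2% of all genes and 0 of 8 members stood at an unadjusted p under 0.05. The widest gap was that of CASP6, at 0.34 (SE 0.20, 95% interval -0.090 to 0.77, limma adjusted p = 0.448), with the KYSE510 estimate above the KYSE150 estimate. An exact two-sided permutation test for single members gave 0.2 to 0.8 in KYSE150 and 0.4 to 0.9 in KYSE510, and 3 against 3 libraries cannot go below 0.1.

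**Figure D2:**
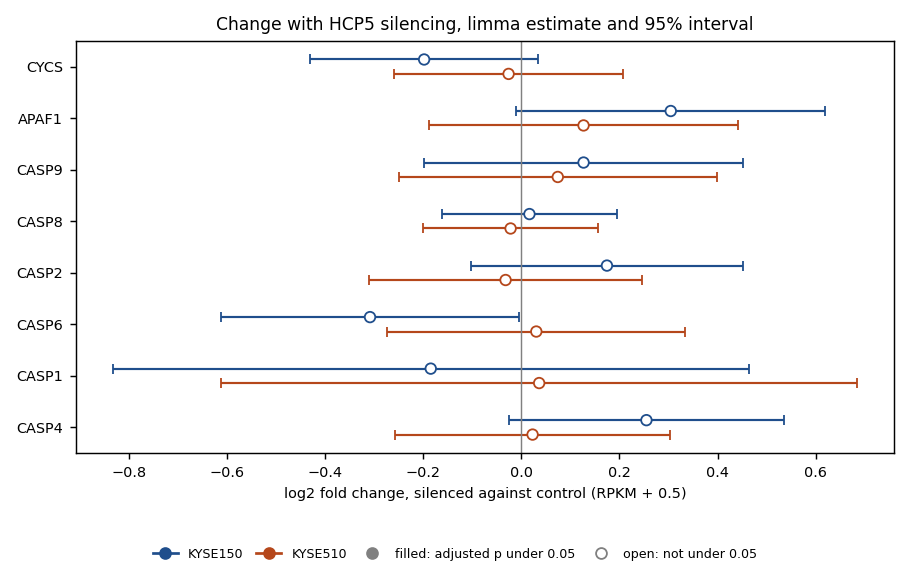
Log2 difference of silenced against control (x axis, RPKM + 0.5 scale) for the 8 genes in each line, as limma estimates with 95% intervals from the fit without a block. All points are open because none had an adjusted p under 0.05; the interval of CASP6 in KYSE150, from -0.61 to -0.0051, is the only one that leaves out 0, and the CASP1 intervals are the widest.

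Among the other genes of these pathways, 63 were listed by role, 62 were in the table and 54 passed the filter on low values. In the limma fit 0 of the 54 passed after silencing in either line, where 0.499% of all genes did in KYSE150 and 0.0393% did in the other line. Before adjustment, 15 of 54 had a p under 0.05 in KYSE150, against 18.1% of all genes, and 2 of 54 did in KYSE510, against 6.35%. With the replicate block, 7 of 54 rose and 3 fell in KYSE150, where 5.04% of all genes rose and 1.66% fell, and none passed in KYSE510. The 10 are named here after their blocked values were seen. They included FADD and the death receptor TNFRSF10B on the receptor side. On the mitochondrial side they were the BCL2 relatives MCL1, BCL2L1 and PMAIP1 and the protease HTRA2. MDM2, a CASP2 substrate in the PIDDosome response, completed the genes that rose. Those that fell were ANP32A, a promoter of apoptosome assembly, VDAC2, a channel of the outer mitochondrial membrane, and LMNB1, a lamin cleaved by caspases. MCL1 had a difference of 0.50 with a blocked limma adjusted p of 0.0126. FADD had a difference of 0.31 with a blocked limma adjusted p of 0.0479. Without the block the limma adjusted p was 0.101 for MCL1 and 0.112 for FADD. The fit without a block but without KYSE150 control replicate 3 gave MCL1 0.0362 and FADD 0.0405. The same fit brought VDAC2 and ANP32A past the threshold, at 0.0400 and 0.0355. It called 1287 genes in all, against 89 in the main fit. MCL1, FADD, VDAC2 and ANP32A each passed in only 1 of the 12 fits that left out 1 library.

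The lines themselves differed in CASP1 and CASP8 by far more than their replicates. In control cells, 3 of 8 members were higher in KYSE510, where 28.3% of all genes were, and 0 were lower, where 33.7% were. The lines differed in 62% of all genes, so the count of members called carries no information about this set. CASP8 was 3.32 times as high by group means, with a log2 difference of 1.5 (SE 0.081, 95% interval 1.32 to 1.67, limma adjusted p = 3.38e-08). CASP1 was 6.56 times as high, with a log2 difference of 2.24 (SE 0.29, 95% interval 1.59 to 2.88, limma adjusted p = 4.89e-05). In size, 4.05% of all genes differed more than CASP1 and 9.98% more than CASP8. Both held their calls in all 12 fits that left out 1 library.

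CASP9 was the third, at 1.70 times the KYSE150 level (log2 difference 0.43, SE 0.15, limma adjusted p = 0.0236), and this call was not stable. It was lost without KYSE150 control replicate 1 (limma adjusted p = 0.0752), KYSE510 control replicate 2 (0.101) or KYSE510 control replicate 3 (0.0639), without the filter on low values (0.0518) and in a fit of the 6 control libraries alone (0.0522). CASP2 was at -0.30 (SE 0.13, limma adjusted p = 0.0605), with lower values in KYSE510. It passed with libraries set to a common median (0.0143), with voom (0.0445), and without KYSE150 control replicate 2 (0.0337) or KYSE510 control replicate 3 (0.0354). CYCS was at -0.13 (SE 0.11, limma adjusted p = 0.299) and passed without KYSE150 control replicate 3, at -0.25 (0.0282). CASP6 was at 0.14, CASP4 at 0.072 and APAF1 at 0.052, with 95% intervals from -0.26 at the lowest to 0.45 at the highest.

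The line difference was also estimated in the silenced libraries, in the same fit with its shared variance, so the 2 estimates are not independent. In silenced cells 4 of 8 members were higher in KYSE510 and 1 was lower, where 24.2% of all genes were higher and 39.8% lower. CASP1 was 7.28 times as high (log2 difference 2.46, SE 0.29, limma adjusted p = 2.25e-05) and CASP8 3.21 times (1.46, SE 0.081, limma adjusted p = 4.18e-08). CASP6 was higher by 0.48 (SE 0.14, limma adjusted p = 0.00973), and CASP2 was lower, at -0.50 (SE 0.13, limma adjusted p = 0.00452). CASP6 and CASP2 passed here and not in controls, but the difference between the 2 line contrasts is the difference in silencing effects given above, which did not pass for either gene. CASP9 was at 0.38 (SE 0.15, limma adjusted p = 0.0405), a call lost in 7 of 12 fits that left out 1 library, with an adjusted p of up to 0.151. These were the fits without KYSE150 control replicate 2, KYSE510 control replicate 3, KYSE150 silenced replicate 1 or 2, or any of the 3 KYSE510 silenced replicates. The CASP9 call was also lost without the filter on low values (limma adjusted p = 0.0814). No overlap between lines was found for CASP1, CASP8 and CASP9 in both arms, and for CASP2 and CASP6 in the silenced arm, where 64% of all genes in controls and 69.7% in silenced cells had none.

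**Figure D3:**
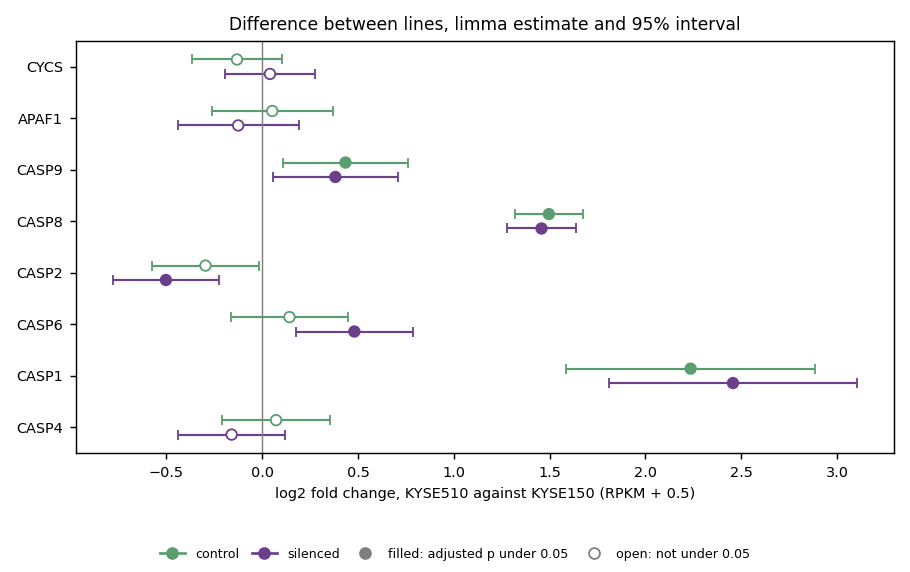
Log2 difference of KYSE510 against KYSE150 (x axis, RPKM + 0.5 scale) for the 8 genes, in control and in silenced libraries, as limma estimates with 95% intervals; filled points have an adjusted p under 0.05. CASP1 (2.24 and 2.46) and CASP8 (1.5 and 1.46) lie farthest from 0, and the intervals of APAF1, CYCS and CASP4 include 0 in both.

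CASP1 sits in a row of related genes on chromosome 11, and the neighbours did not all follow it. From CASP4 to CARD18 the table lists 8 genes, all on the minus strand. CARD16, a CARD-only relative that can restrain CASP1, was at 0.0451 to 0.183 RPKM in the 6 KYSE150 libraries and 2.38 to 3.18 in the 6 KYSE510 libraries. CARD17, another CARD-only relative, was at 0.0761 to 0.239 and 1.33 to 3.03, and the pseudogene CASP1P2 at 0 to 0.0397 and 0.892 to 1.60. CASP5, between CASP4 and CASP1, did not exceed 0.0956 RPKM in any library, and CASP4 spanned 3.91 to 6.67 RPKM in the first line and 4.39 to 5.05 RPKM in the second. CARD16 rested on 2 to 7 reads a library in KYSE150 and 85 to 129 in KYSE510, and CARD17 on 1 to 3 and 14 to 34. Both passed the filter on low values through KYSE510 alone, and the size of their fitted differences follows the pseudocount, so their line differences are described without a test. CARD16 and CARD17 share 24 exon bases on the same strand and resemble CASP1 in sequence, so reads may be split among them.

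CASP8 has a similar setting on chromosome 2, beside CFLAR and CASP10. CFLAR, the catalytically inactive relative that restrains CASP8, was at 0.344 to 0.522 RPKM in KYSE150 and 0.943 to 1.22 in KYSE510. It reached 0.5 RPKM in 1 of the 6 KYSE150 and all 6 KYSE510 libraries. CFLAR shares 6.60% of its exon bases with IMPDH1P10 and 3.45% with CFLAR-AS1 on the opposite strand (0.437 and 0.365 RPKM on average) and 1.98% with AC007283.5 on the same strand (1.07 RPKM). These levels are near that of CFLAR, and the use of strand in counting is not given in the sources used here. CASP10, the other death-receptor initiator, was at 0.275 to 0.493 and 0.460 to 1.13, and no KYSE150 library reached 0.5 RPKM. CFLAR and CASP10 thus passed the filter through KYSE510, and their line differences are described without a test. FADD, the adaptor for CASP8 encoded on chromosome 11, was at 34.2 ± 2.73 RPKM in KYSE150 controls and 104 ± 2.22 in KYSE510 controls (SD, n = 3), a log2 difference of 1.59 (SE 0.081, limma adjusted p = 2.23e-08). A transcript on the opposite strand covers 54.9% of the FADD exon bases, at 44.8 RPKM on average, so without strand the reads of the 2 cannot be told apart.

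**Figure D4:**
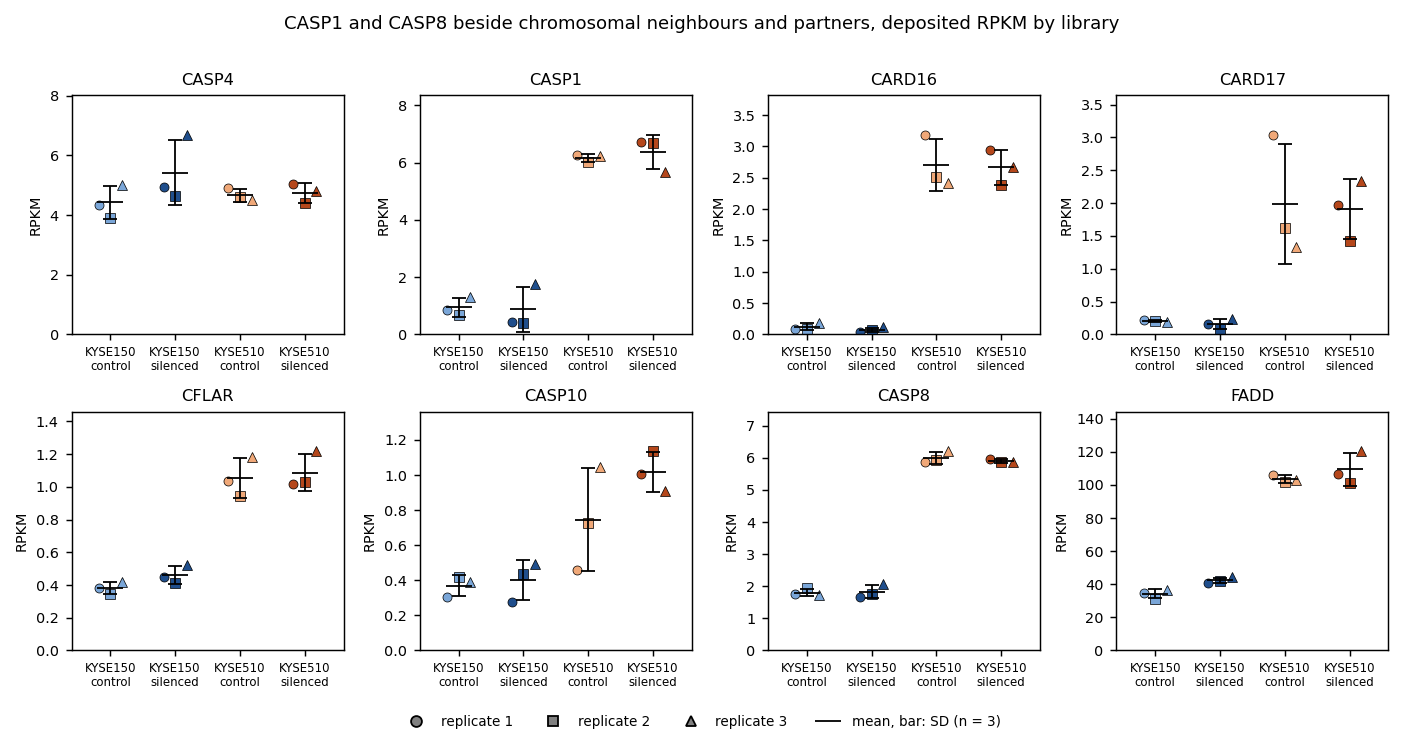
Deposited RPKM by library (y axis, from 0, scaled to each gene) for CASP1 with its neighbours CASP4, CARD16 and CARD17 and for CASP8 with its neighbours CFLAR and CASP10 and its adaptor FADD, with the mean and SD of each group (n = 3). KYSE510 points lie above all KYSE150 points for CASP1, CARD16, CARD17, CFLAR, CASP8 and FADD, and the points of the lines overlap for CASP4 and CASP10.

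The other direct partners of the members differed in both directions between control lines. PYCARD, the adaptor that links sensors to CASP1, reached at most 0.416 RPKM and was not tested. GSDMD, cleaved by CASP1 and CASP4, was at 4.16 ± 0.492 RPKM in KYSE150 and 4.75 ± 0.520 in KYSE510 (limma adjusted p = 0.247, and 0.0417 with libraries set to a common median). The interleukins matured by CASP1 were lower in KYSE510: IL18 at 14.3 ± 1.57 and 10.5 ± 0.526 RPKM (log2 difference -0.42, limma adjusted p = 0.0154) and IL1B at 6.03 ± 1.65 and 2.75 ± 0.772 (-1.0, limma adjusted p = 0.0212). The IL18 call was lost without KYSE150 control replicate 2 (0.0561), and the IL1B call without KYSE150 control replicate 1 (0.0614), KYSE150 control replicate 3 (0.0712) or KYSE510 control replicate 2 (0.0850).

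Of the PIDDosome genes that act with CASP2, the adaptor CRADD was lower in KYSE510, at 1.19 ± 0.106 and 0.552 ± 0.0402 RPKM (log2 difference -0.69, limma adjusted p = 0.000215). The scaffold PIDD1 was at 1.12 ± 0.374 and 1.53 ± 0.399 (limma adjusted p = 0.184, and 0.0499 without KYSE150 control replicate 3), and 1.82% of its exon bases lie opposite RPLP2, which averaged 427 RPKM. Around the apoptosome, HCCS, which attaches heme to cytochrome c, was lower in KYSE510, at 26.8 ± 2.02 and 19.9 ± 0.421 RPKM (-0.41, limma adjusted p = 0.000281). XIAP, an inhibitor of CASP9, was at 3.33 ± 0.320 and 2.77 ± 0.380 (limma adjusted p = 0.0995, and 0.0294 with a common median). DIABLO, which relieves XIAP, was at 9.55 ± 0.310 and 7.98 ± 0.434 (-0.25, limma adjusted p = 0.0100, and 0.107 with a common median). It shares 19.1% of its exon bases with RP11-512M8.5 on the same strand, which averaged 24.2 RPKM, above DIABLO itself. With B3GNT4 on the opposite strand, at 8.67 RPKM on average, it shares 16.3%.

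Across the 7 lists of pathway genes, 17 of 54 tested were higher in KYSE510 controls, 20 were lower and 17 did not pass, beside 28.3% higher and 33.7% lower over all genes. Among the 37 called, CARD16, CARD17, CASP10 and BCL2 reached 0.5 RPKM in no library of 1 line and passed the filter through the other. Without these 4, 33 calls remained. CFLAR, also called, reached 0.5 RPKM in 1 KYSE150 library and all 6 KYSE510 libraries. DFNA5, also called, reached 0.5 RPKM in no KYSE510 control library. The calls of these genes stay in the counts but are not read as line differences. Of the 37 calls, 9 were lost in at least 1 fit that left out a library and 4 with a common median. The median log2 difference was 0.053 over the 54, 0.11 over the 8 members and -0.068 over all genes. Of 12 genes that control cytochrome c release, the fit counted 7 as higher and 2 as lower. BAX, which forms pores in the mitochondrial membrane, led them at 8.49 ± 3.05 and 19.9 ± 2.13 RPKM (1.23), followed by its activator BID (0.85) and by PMAIP1 (0.71), which neutralises MCL1. MCL1 (0.42) and BAK1 (0.53) were also higher, and both calls were lost without KYSE150 control replicate 2 or KYSE510 control replicate 3. BCL2L1 (-0.36) was lower. BCL2, also counted as lower, passed the filter through KYSE150 alone, and its call is not read as a difference.

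Of 11 apoptosome regulators, 2 were higher and 4 lower, the former including BIRC2 (0.67), an inhibitor of apoptosis protein, and the latter AVEN (-0.52), which binds APAF1, and the chaperone HSPA8 (-0.61). The HSPA8 call was lost without KYSE150 control replicate 1 (0.0623), KYSE150 control replicate 3 (0.0521) or KYSE510 control replicate 2 (0.0832). Of 4 PIDDosome genes, 3 were lower and 0 higher: CRADD, MDM2 (-0.38) and NPM1 (-0.46, limma adjusted p = 0.00578, and 0.0502 with a common median). Of 7 genes of the death-inducing complex, the fit counted 2 as higher and 2 as lower. FADD was higher, and the receptor TNFRSF10A (-0.95) was among the lower. The low CFLAR, also counted as higher, reached 0.5 RPKM in 1 KYSE150 library only, and its call is not read as a difference. Of 8 inflammasome partners tested, the fit counted 3 as higher and 3 as lower. NINJ1 (1.77), which ruptures the membrane after gasdermin pores form, was higher, and IL1B, IL18 and the sensor NLRP1 (-0.97) were lower. CARD16 and CARD17, also counted as higher, passed the filter through KYSE510 alone, and their calls are not read as differences. Of 11 caspase substrates, the fit counted 2 as higher and 6 as lower, among them the kinases PAK2 (0.72) and ROCK1 (-0.82). The substrate with the largest fitted difference was the gasdermin GSDME, listed as DFNA5, which forms membrane pores once cleaved. DFNA5 was at 4.43, 3.74 and 6.06 RPKM in KYSE150 controls and 0.430, 0.302 and 0.392 in KYSE510 controls (log2 difference -2.56, and -3.65 to -2.04 under the other settings). No KYSE510 control library reached 0.5 RPKM, so the fitted size follows the pseudocount, and the line difference is described without a test. After silencing DFNA5 was at 5.79, 5.34 and 7.66 RPKM in KYSE150 and 0.595, 0.538 and 1.11 in KYSE510, so the lines did not overlap in either arm. In KYSE510 its silenced libraries lay above its controls, with a difference of 0.49 that did not pass (limma adjusted p = 0.731). The lower calls of ACIN1 (0.0991) and LMNB1 (0.102) were lost with a common median, which left 4 of the 6. The ACIN1 call was also lost without KYSE150 control replicate 1 (0.0518) or 2 (0.0795) or KYSE510 control replicate 2 (0.0513) or 3 (0.0833).

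**Figure D5:**
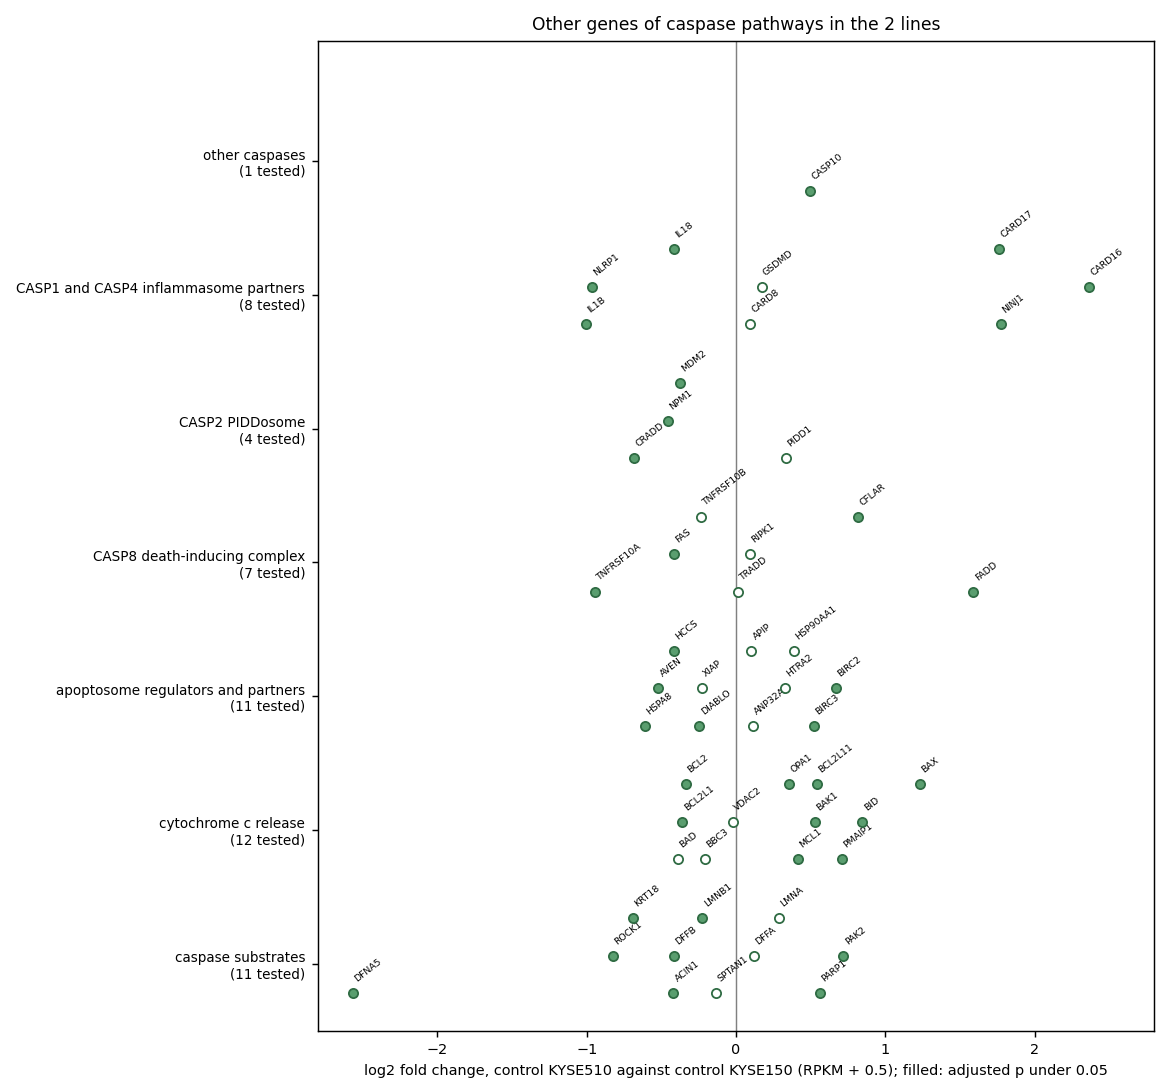
Log2 difference of KYSE510 against KYSE150 in control cells (x axis, RPKM + 0.5 scale) for the 54 pathway genes tested, by list (y axis; height within a row only separates labels), with filled points where the adjusted p was under 0.05. Points lie on both sides of 0 in every list except the other caspases, where CASP10 (0.49) stands alone, with CARD16 (2.36) and DFNA5 (-2.56) at the ends. CARD16, CARD17, CASP10 and BCL2 passed the filter through 1 line only. Their filled points are not read as line differences, nor is that of CFLAR, which reached 0.5 RPKM in 1 KYSE150 library. The same holds for DFNA5, which reached 0.5 RPKM in no KYSE510 control library.

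Within the lines, some members varied together across libraries. After the mean of each line was removed from log2(RPKM + 0.5), APAF1 and CASP9 had a Pearson r of 0.87 over the 12 libraries, and both were lowest in the same library of each group, replicate 1 in 3 groups and replicate 3 in silenced KYSE510. CYCS ran against CASP2 (-0.83) and APAF1 (-0.73), and CASP1 was nearest to CASP4 (0.63). Over 14021 genes with a mean of at least 1 RPKM, the most like CASP9 were ARL2 (0.97) and FAM208A (0.96), and the most like APAF1 were CYTH2 (0.98) and KCTD12 (0.96). DEAF1 (0.99) and COPS9 (0.97) were nearest to CASP2, ATP10D (0.94) and PCSK7 (0.93) to CASP4, and TMEM161B-AS1 (0.98) and RP11-193F5.4 (0.92) to CASP6. CASP8 had REV3L (0.91) and FGD4 (0.86), CASP1 had PPIP5K2 (0.91) and DUX4L50 (0.90), and CYCS had TTC5 (0.94) and CTD-2292M16.7 (0.93). DUX4L50 averaged 2.72 RPKM in KYSE150 and 0.0110 RPKM in KYSE510, so its r rests on the KYSE150 libraries. These are descriptions over 12 points that share depth, scaling and replicate number.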

How the data were processed

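The deposited unit is RPKM: the authors divided each gene's reads by its exon length and by the library's reads on genes, as the values themselves show. The position columns are those of featureCounts, per the file headers, and HISAT2, DESeq and GRCh38 are named in the submitters' processing notes, without their roles. Multiplied by length and divided by the smallest step of its library, 100% of values came out whole (tolerance 0.05), which gave the reads. PCR copies are not independent molecules, so read numbers limit precision by counting error only. Groups came from the labels' treatment and cell line, and replicate numbers from the titles.

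Values were analysed as log2(RPKM + 0.5), which understates changes of low genes. Genes with at least 0.5 RPKM in at least 3 libraries (17823) were fitted with limma 3.58.1 in R 4.3.3 (4 group means, 12 libraries, eBayes with trend), two-sided and adjusted by Benjamini-Hochberg over all of them. The test was checked on simulated data. The main alternatives were a replicate block, pseudocounts of 0.1 and 1, no filter, a common library median, voom on recovered reads, only the 6 libraries compared, no trend, and each library left out.

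Same-numbered control and silenced libraries deviated together (r = 0.147 to 0.415 over 17823 genes in 6 of 6 pairs, other pairs -0.385 to 0.184). Each number was therefore read as a pair of a line, an assumption on which the blocked values rest. Deviations were taken from group means, so positive same-numbered values in themselves push the other pairs down. KYSE150 control replicate 2 was closer to silenced replicate 1 (0.184) than to silenced replicate 2 (0.147). The contrasts between lines lie between blocks and have no blocked value.

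The members and gene lists were chosen with earlier results of these data known. All 8 members and 12 direct partners were named, with up to 3 further genes per list past the threshold by size of difference in controls and a mean of at least 1 RPKM in a line, the 2 genes most like each member, and HCP5. CARD17, CASP10 and the chromosomal neighbours were added for their relation to members. BAK1, BCL2, BCL2L1 and MCL1 were added to the named genes of cytochrome c release. GSDME was read under its older symbol DFNA5. Some pathway genes are not reported here and are left out of the list counts. Marker lists for simple epithelium (4 genes) and endothelium (3) were also read: 3 and 4 of the former reached 1 RPKM in KYSE150 and KYSE510, and 0 and 1 of the latter.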

Additional observations from a re-analysis of the deposited data

How the results depend on the processing

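The count of members changed stayed at 0 for silencing in KYSE150, in KYSE510, over both lines and for the difference between lines under every setting run, the replicate block included, and the block changed no call of a member. Between control lines it was 2 to 4 and between silenced lines 4 to 5. Directions of members that did not pass were less stable. A common library median moved all differences by -0.13 in KYSE150, 0.16 for the difference between lines and 0.19 between silenced lines. It gave CASP8 -0.11 and CASP9 -0.0028 in KYSE150, CASP8 0.0040 in KYSE510, CASP8 0.12 and CASP9 0.10 for the difference between lines, and CASP4 0.025 and APAF1 0.060 between silenced lines. Without replicate 3 of both KYSE150 groups, a setting chosen after seeing the data, CASP8 was -0.077 in KYSE150 and 0.055 for the difference.

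Leaving out 1 library at a time turned the sign of some members. In KYSE150 the range was CASP1 -0.62 to 0.048 and CASP8 -0.051 to 0.066. In KYSE510 the range was CASP1 -0.0012 to 0.11, CASP2 -0.12 to 0.051, CASP4 -0.018 to 0.073, CASP6 -0.050 to 0.084, CASP9 -0.070 to 0.20 and CYCS -0.065 to 0.043. Over both lines the range was CASP1 -0.29 to 0.042 and CASP8 -0.036 to 0.022. For the difference between lines the range was CASP1 -0.012 to 0.66, CASP8 -0.088 to 0.029 and CASP9 -0.20 to 0.069. Between controls the range was CASP4 -0.0041 to 0.16 and APAF1 -0.067 to 0.14.

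The number of all genes changed moved far more than the members did. In KYSE150 it was 89, and 1194 with the replicate block, 7 in a fit of its 6 libraries, 49 without both replicates 3, and 15 (without silenced replicate 3) to 1287 (without control replicate 3) with 1 library left out. In KYSE510 it was 7, and 20 with the block, 3 with a pseudocount of 0.1, 44 without the filter, 0 in a fit of its 6 libraries, and 2 to 7 with 1 library left out. Over both lines it was 96, and 488 with the block and 43 to 140 with 1 library left out. For the difference it was 0, 10 without the filter and 0 to 4 with 1 library left out. A common median moved the share of changed genes that were higher from 75.3% to 46.6% in KYSE150, from 57.1% to 75% in KYSE510, from 66.7% to 51.6% over both lines and from 37.8% to 50.9% between silenced lines. The cause was not tested. A leave-one-out fit that left 2 libraries in a group used the spread of all groups. CASP9, with 50 to 154 reads a library, and CASP1 in KYSE150, with 42 to 177, are the members whose depth limits precision most.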

Other observations

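CASP14, the caspase of keratinocyte cornification, was not tested because it did not reach 0.5 RPKM in 3 libraries. It was at 1.46 RPKM (138 reads) in silenced KYSE150 replicate 3 and 0.529 RPKM (46 reads) in silenced KYSE510 replicate 3, and at 0.0226 to 0.202 RPKM in the other 10 libraries. The same 2 libraries had the highest summed level of the 10 squamous markers, 2962 and 2983 RPKM, against 1026 to 2066 in the others.

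CYCSP6, a pseudogene of cytochrome c on chromosome 2 (78412793 to 78413094), was at 3.93 to 7.74 RPKM (28 to 61 reads) in the 6 KYSE150 libraries and was listed at 0 in all 6 KYSE510 libraries. Of the 30 CYCS pseudogenes, 7 were at 0 in every library and 3 reached 1 RPKM in any, and the other 2 of these, CYCSP45 and CYCSP55, were present in both lines (4.36 to 10.5 and 1.84 to 3.92 RPKM in KYSE150, 2.86 to 5.90 and 2.20 to 3.21 RPKM in KYSE510).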
